A study of Mus musculus with 16 samples.

Results

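The genes described here mark cells other than fat cells and their precursors: leukocytes, endothelial cells of blood vessels, Schwann cells and other glia, skeletal muscle, mesothelium (the lining of body cavities) and epithelium. They were taken by symbol from a list of 36 symbols. The table held them as 35 genes of 29060 in all, since the list names 1 leukocyte gene both as Adgre1 and by its older symbol Emr1, the one used in the table. By list these were 9 leukocyte, 8 endothelial, 5 Schwann and glial, 4 skeletal muscle, 4 mesothelial and 5 epithelial genes. Their levels bear on how much RNA of such cells the cultures held but do not measure it, since other cells can express some of them. A level of 0.5 RPKM (a read count scaled by transcript length and library depth) was the limit.

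The cultures were primary mouse preadipocytes grown from the stromal-vascular fraction, which is what remains of fat tissue once the floating fat cells are removed. Libraries formed 4 groups of 4: brown Fgf8b and brown control, from interscapular brown fat, and white Fgf8b and white control, from inguinal white fat. All mice were C57BL/6N animals with a UCP1 reporter, and Fgf8b is a secreted fibroblast growth factor. The sources used here give neither dose nor duration of treatment, and neither the age of the mice nor what the controls received. The design text counts 3 independent cultures while each group holds 4 libraries. A p-value therefore covers the scatter among these libraries, some of it possibly technical. A library is called by its group and its labelled number. Numbers 1 to 8 are white and 9 to 16 brown, so depot and library order cannot be told apart.

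As background, the stromal-vascular fraction of fat contains macrophages and other leukocytes, capillary endothelium, nerve-associated glia and, in depots that border muscle or a body cavity, muscle progenitors and mesothelium beside the fibroblast-like precursors. Plating, washing and growth on plastic favour the fibroblast-like cells. A gene used to mark a cell type is seldom exclusive to it: fibroblasts and mesenchymal progenitors in culture can express endoglin, the receptor Ngfr or simple keratins, so a single marker does not identify a cell. In bulk RNA, fewer cells of a type and less RNA per cell cannot be told apart.

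Depth, read back from the whole-read steps of the values, was 14600000 to 16000000 reads in brown Fgf8b, 13700000 to 16100000 in brown control, 16200000 to 20100000 in white Fgf8b and 15600000 to 19800000 in white control libraries. Brown control 15 stood apart from its group: over 11790 genes its median absolute log2 difference from the other libraries of the group was 0.145, against 0.0518 to 0.0788 for the other libraries. Fibroblast markers gave the scale. Vim, the intermediate filament protein vimentin, averaged 1760 RPKM in brown Fgf8b, 1150 RPKM in brown control, 1860 RPKM in white Fgf8b and 1250 RPKM in white control libraries, and Col1a1, the collagen type I chain, 234, 1310, 415 and 1780 RPKM in the same groups. The labels call the cells adipocytes in their source field and preadipocytes in the series title; of 7 mature adipocyte genes 6 were below 0.5 RPKM in every group. The other, the fatty acid binding protein Fabp4, was 10.6 to 13.5 RPKM in brown Fgf8b, 16.8 to 19.4 RPKM in brown control, 5.10 to 6.29 RPKM in white Fgf8b and 9.66 to 11 RPKM in white control libraries. A level of 0 can be a failed estimate here, because Gapdh and Ppia, which nearly every cell uses, were listed at 0 in all 16 libraries and share 84.1% and 45.8% of their 31-base words with other genes. Among the markers such sharing was high for Itgam (74.1%), Krt8 (36%) and Lyz2 (32.8%, with Lyz1), moderate for Csf1r (18.0%, with Hmgxb3) and Krt18 (11.4%), and at most 1.5% for the others.

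Most of the markers were below the limit. The mean of the representative transcript was under 0.5 RPKM for 24 of 35 genes in brown Fgf8b (68.6%), 21 in brown control (60.0%), 26 in white Fgf8b (74.3%) and 23 in white control libraries (65.7%). Over all 29060 genes the shares below 0.5 RPKM were 55.9%, 54.4%, 55.4% and 54.7% in the same groups. In every group 19 markers were below the limit, and 8 of the 35 had fewer than 10 reads in the 16 libraries together. The 6 genes at or above 0.5 RPKM in every group were Cd68 and Cd14 of the leukocyte list, Cdh5 and Eng of the endothelial list, S100b and Krt19. The remaining 10 genes were on different sides of the limit in different groups: Csf1r, Lyz2, Coro1a, Kdr, Tek, Sox10, Ngfr, Erbb3, Bnc1 and Krt18. Nearest the limit were Krt18 at 0.450 and Coro1a at 0.522 RPKM in brown Fgf8b, Emcn at 0.393 and Cdh5 at 0.571 RPKM in brown control, Coro1a at 0.428 and Tek at 0.608 RPKM in white Fgf8b, and Emcn at 0.214 and Csf1r at 0.606 RPKM in white control libraries. Summed over all entries of a gene, which counts a read once for each transcript it fits, 14 genes and not 24 were below 0.5 in brown Fgf8b libraries. The other groups depended on this choice too. Summed, Emcn reached 0.5 RPKM in 4 brown control and 3 white control libraries, and Epcam in 4 white Fgf8b libraries.

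**Figure D1:**
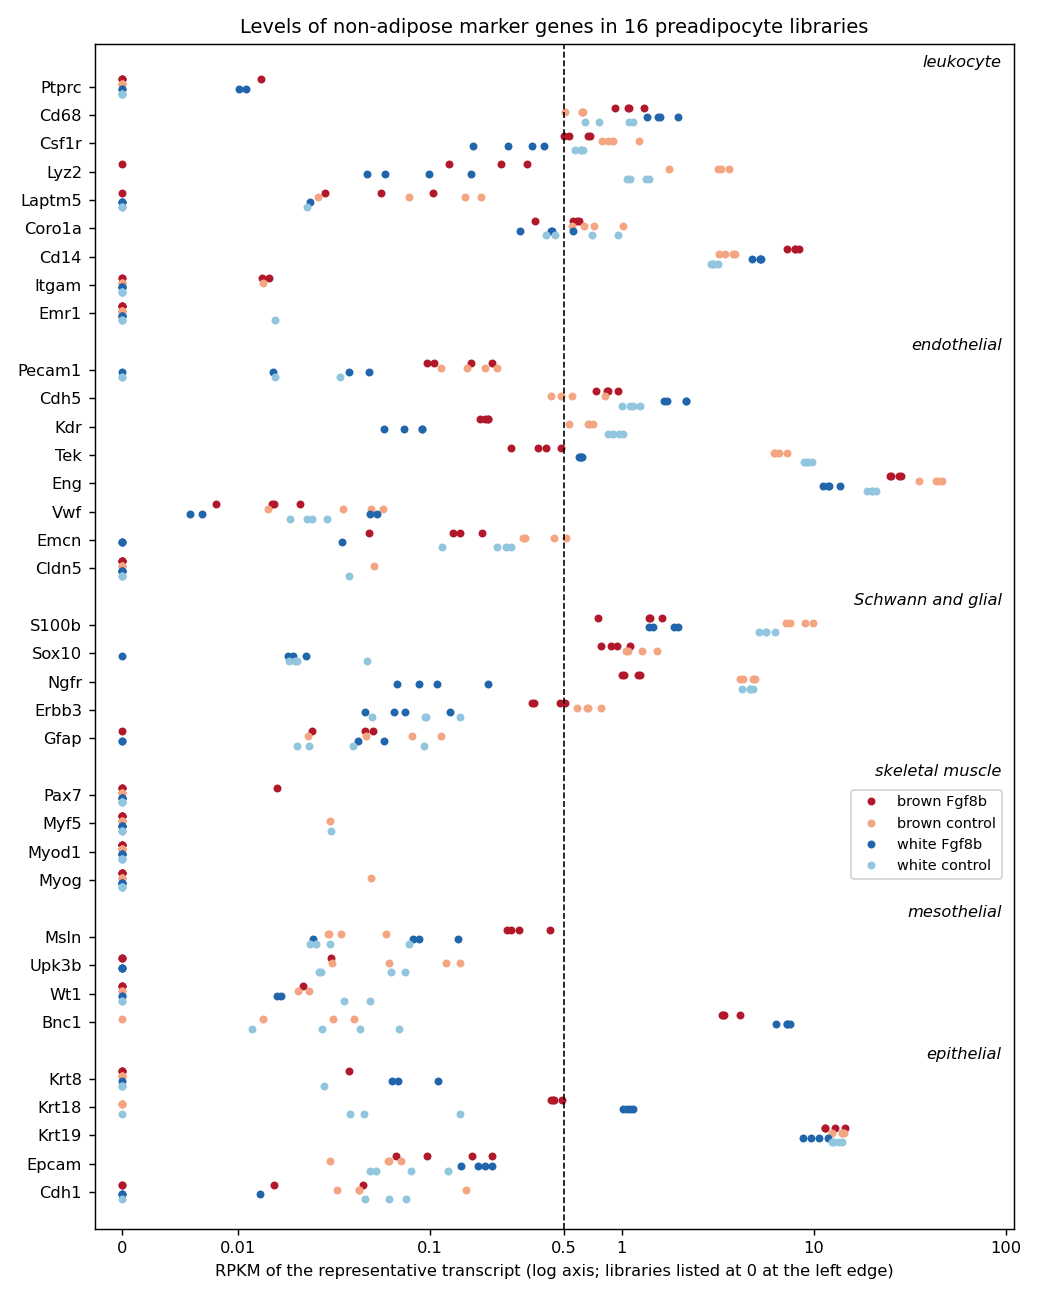
Level of each of the 35 marker genes in each of the 16 libraries, as RPKM of the representative transcript on a log axis, with libraries listed at 0 at the left edge and a dashed line at 0.5 RPKM; colours give the 4 groups. Eng and Krt19 are the highest markers in all groups, the 4 skeletal muscle genes sit at or near 0, and Bnc1 lies between 3.31 and 7.53 RPKM in the Fgf8b libraries and at or below 0.0694 RPKM in the controls.

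Of the 35 genes 21 passed the filter for testing, a summed level of at least 0.5 RPKM in at least 4 libraries, and 14 did not. Of the 21, 12 were under that level in at least 1 library, so that a gene such as Msln, which passed through the 4 brown Fgf8b libraries alone, had to differ between groups. Likewise Sox10, Erbb3 and Pecam1 passed through brown libraries alone, and Bnc1 and Krt18 through Fgf8b libraries alone. Laptm5 reached the level in 3 libraries of each brown group, 1 white Fgf8b and 0 white control libraries. Epcam reached it in 2 brown and 4 white Fgf8b libraries, against 0 brown and 1 white control libraries. Lyz2 (2 brown and 0 white Fgf8b libraries) and Emcn (3 brown and 0 white Fgf8b libraries) passed only with the controls counted. The counts that follow, and the values of these genes in those contrasts, are therefore descriptions. Fgf8b against control gave 17 called genes in brown preadipocytes, 7 higher and 10 lower, where 71.4% of all 15222 tested genes were called (36.7% higher and 34.7% lower). In white preadipocytes it gave 15 called genes, 6 higher and 9 lower, where 65.7% of all tested genes were called (36.3% higher and 29.5% lower). The markers' counts of 17 and 15 of 21 were near this background. These shares are also the background of the counts by list given below, from which nothing particular to a cell type is read. Their median absolute log2 change was 0.87 in brown and 0.71 in white preadipocytes, against 0.37 and 0.31 over all tested genes. Their signed median was -0.40 in brown and -0.07 in white, against 0.01 and 0.04 over all tested genes. The 14 genes called in both depots changed in the same direction in each, 6 higher and 8 lower. The matching share over all tested genes was not worked out, so nothing particular to the markers is read from this. Brown against white gave 16 called genes under Fgf8b, 11 higher and 5 lower in brown, with 51.6% of all tested genes called (26.9% higher and 24.7% lower). Under control it gave 14, 10 higher and 4 lower in brown, with 33.9% of all tested genes called (18.1% higher and 15.9% lower). Without brown control 15 there were 13.

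**Figure D2:**
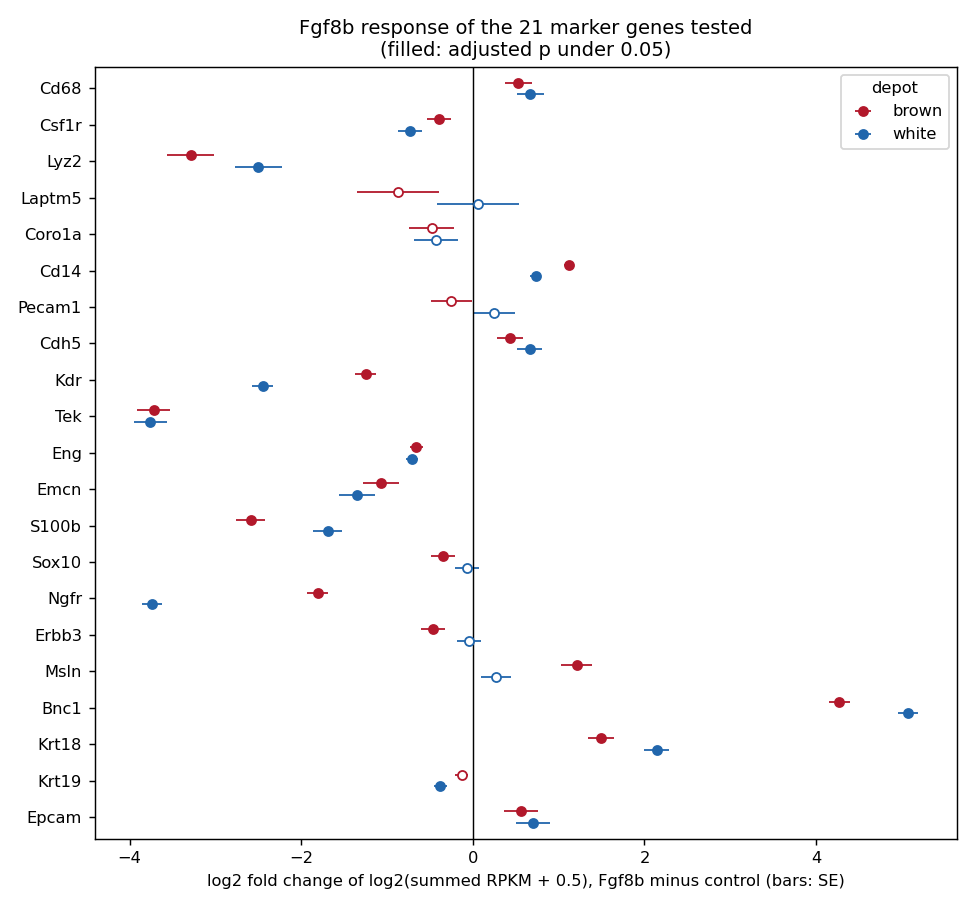
Log2 fold change with Fgf8b of the 21 tested marker genes in brown (red) and white (blue) preadipocytes, on the scale of log2(summed RPKM + 0.5), Fgf8b minus control, with the standard error as bars and filled points for an adjusted p under 0.05. Bnc1 has the largest rise in both depots (4.27 in brown, 5.07 in white), and Tek, Ngfr, Lyz2, S100b and Kdr have the largest falls.

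Leukocyte genes differed widely in level. At or above 0.5 RPKM were 4 of the 9 in brown Fgf8b, 5 in brown control, 2 in white Fgf8b and 5 in white control libraries. Ptprc, the pan-leukocyte phosphatase CD45, had 3 reads in the 16 libraries, Itgam, the integrin CD11b of myeloid cells, had 3, with 74.1% of its words shared, and Emr1, the macrophage receptor F4/80, had 1. A total of 3 reads in 16 libraries is a level of 0.00217 RPKM for Ptprc, the limit that a count of 0 would allow. The summed level of the 9 genes was 9.77 to 10.7 RPKM in brown Fgf8b, 7.47 to 9.54 RPKM in brown control, 7.26 to 7.96 RPKM in white Fgf8b and 5.67 to 6.75 RPKM in white control libraries. Of the 6 leukocyte genes tested, 2 rose and 2 fell with Fgf8b in each depot, and the median log2 change of the 6 was -0.44 in brown and -0.19 in white.

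Cd14, a co-receptor for bacterial lipopolysaccharide on monocytes that fibroblasts can also express, was 7.26, 7.94, 8.33 and 7.96 RPKM in brown Fgf8b libraries and 3.89, 3.81, 3.44 and 3.20 RPKM in brown control libraries. In white Fgf8b libraries it was 4.75, 5.22, 5.28 and 5.25 RPKM, against 2.99, 2.97, 2.92 and 3.17 RPKM in white control libraries. The groups did not overlap in either depot. Cd14 rose 2.20-fold in brown (log2 1.12, SE 0.062, limma adjusted p = 7.11e-12) and 1.70-fold in white (log2 0.73, SE 0.062, limma adjusted p = 5.38e-09). Its rise was larger in brown by 0.39 (SE 0.087, limma adjusted p = 0.00179). Cd68, a lysosomal glycoprotein of macrophages, was 1.3, 0.922, 1.09 and 1.08 RPKM in brown Fgf8b and 0.505, 0.628, 0.622 and 0.618 RPKM in brown control libraries. In white Fgf8b libraries it was 1.54, 1.35, 1.58 and 1.97 RPKM, against 0.761, 1.15, 0.642 and 1.09 RPKM in white control libraries. Every Fgf8b library was above every control library of its depot. Cd68 rose by 0.53 in brown (SE 0.16, limma adjusted p = 0.00684) and 0.67 in white (SE 0.16, limma adjusted p = 0.0012). Cd68 was lower in brown under both treatments, by -0.67 with Fgf8b (limma adjusted p = 0.00189) and -0.52 with control (limma adjusted p = 0.0167). The call under control was lost without white control 3 (-0.36, limma adjusted p = 0.0714).

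Lyz2, the lysozyme of macrophages and other myeloid cells, moved the other way. It was 0.236, 0.126, 0 and 0.322 RPKM in brown Fgf8b libraries, against 3.17, 3.30, 3.62 and 1.77 RPKM in brown control libraries, brown control 15 being the lowest of these. With Fgf8b, white libraries had 0.163, 0.0992, 0.0470 and 0.0586 RPKM, against 1.39, 1.34, 1.07 and 1.10 RPKM in white control libraries. Fgf8b libraries held 0 to 5 reads of it in brown and 1 to 3 in white. Lyz2 fell in both depots, 17.3-fold in brown (log2 -3.29, SE 0.27) and 13.3-fold in white (log2 -2.50, SE 0.27). Lyz2 passed the filter only with the controls counted, so these falls are descriptions. Among controls it was 2.42-fold higher in brown (log2 1.15, limma adjusted p = 0.00314), a call lost with a pseudocount of 0.1 (log2 1.23, limma adjusted p = 0.084). Csf1r, the receptor of the macrophage growth factor, was 0.5 to 0.685 RPKM in brown Fgf8b, 0.787 to 1.23 RPKM in brown control, 0.167 to 0.392 RPKM in white Fgf8b and 0.574 to 0.627 RPKM in white control libraries. It fell in both depots, with a log2 change of -0.40 in brown (limma adjusted p = 0.0161) and -0.73 in white (limma adjusted p = 0.000137). The brown call was lost without brown Fgf8b 10 (-0.34, limma adjusted p = 0.0523) or brown control 13 (-0.28, limma adjusted p = 0.0746). Its 15 entries did not move together: the highest of them was 3.06 to 3.29 RPKM in brown Fgf8b, 2.32 to 2.90 RPKM in brown control, 2.07 to 2.37 RPKM in white Fgf8b and 2.01 to 2.47 RPKM in white control libraries. Coro1a, an actin-binding protein of leukocytes, was 0.352 to 0.597 RPKM in brown Fgf8b, 0.550 to 1.01 RPKM in brown control, 0.295 to 0.560 RPKM in white Fgf8b and 0.405 to 0.961 RPKM in white control libraries, and passed the test in no comparison. Laptm5, a lysosomal membrane protein of blood cells, had 0 to 7 reads per library. The summed value was higher in brown than in white control libraries (log2 2.01, SE 0.48), while its representative transcript alone was too low to be tested. Laptm5 passed the filter mainly through brown libraries, so this difference is a description. It rests on 1 to 7 reads per brown control library against 0 to 1 per white control library.

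Endothelial genes had the highest summed level of the 6 lists, most of it from Eng. The summed level of the 8 genes was 26.7 to 29.8 RPKM in brown Fgf8b, 44.1 to 54.6 RPKM in brown control, 14.2 to 16.6 RPKM in white Fgf8b and 30.3 to 32.8 RPKM in white control libraries. Pecam1, the adhesion molecule CD31, stayed at or below 0.224 RPKM, and Vwf, the clotting factor stored by endothelium, at or below 0.0568 RPKM. Cldn5, a tight-junction protein, had 2 reads in 16 libraries. The means of Cdh5 and Eng were above 0.5 RPKM in every group, and those of Kdr and Tek in the controls. Tek was also above it in white Fgf8b libraries, at 0.608 RPKM. Of the 6 endothelial genes tested, 1 rose and 4 fell with Fgf8b in each depot. The median log2 change of the 6 was -0.87 in brown and -1.03 in white. Over all tested genes 34.7% fell with Fgf8b in brown and 29.5% in white.

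Tek, the angiopoietin receptor Tie2, had the largest fall of the list. It was 0.403, 0.485, 0.265 and 0.366 RPKM in brown Fgf8b libraries, against 6.61, 6.19, 6.25 and 7.25 RPKM in brown control libraries. In white, Fgf8b libraries had 0.604, 0.597, 0.619 and 0.612 RPKM, against 9.09, 9.33, 9.84 and 8.88 RPKM in white control libraries. The 4 Fgf8b libraries of each depot were thus far below all controls: the means were 17.3-fold lower in brown (log2 -3.72, SE 0.19, limma adjusted p = 2.60e-12) and 15.3-fold lower in white (log2 -3.76, SE 0.19, limma adjusted p = 2.89e-12). Tek was lower in brown than in white under Fgf8b (log2 -0.49, limma adjusted p = 0.0411) and under control (log2 -0.53, limma adjusted p = 0.0414), but both calls lay at the threshold. Under control the call was lost without any 1 of brown control 9, 11 or 13 or of the 4 white controls (limma adjusted p = 0.0511 to 0.0982, other settings included), and under Fgf8b without any 1 of brown Fgf8b 10, 14 or 16 or of white Fgf8b 2, 4 or 6 (limma adjusted p = 0.0516 to 0.153). Kdr, the main receptor of vascular endothelial growth factor, was 0.182 to 0.201 RPKM in brown Fgf8b, 0.534 to 0.708 RPKM in brown control, 0.0576 to 0.0911 RPKM in white Fgf8b and 0.850 to 1.01 RPKM in white control libraries. It fell in both, with a log2 change of -1.25 in brown (SE 0.12, limma adjusted p = 3.58e-08) and -2.45 in white (SE 0.12, limma adjusted p = 2.50e-12). The falls differed by 1.20 (SE 0.17, limma adjusted p = 3.35e-05). Kdr was therefore higher in brown than in white under Fgf8b (log2 0.67, limma adjusted p = 0.000168) and lower in brown under control (log2 -0.53, limma adjusted p = 0.00273).

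Eng, the TGF-beta co-receptor endoglin, which mesenchymal cells in culture also carry, was 27.8, 25.3, 28.3 and 24.8 RPKM in brown Fgf8b libraries, against 43.1, 44.4, 46.4 and 35.2 RPKM in brown control libraries. In white Fgf8b libraries it was 11.8, 11.2, 13.7 and 12 RPKM, against 18.9, 21, 20.2 and 20.1 RPKM in white control libraries. All 4 groups were apart. Eng fell, with a log2 change of -0.66 in brown (SE 0.075, limma adjusted p = 2.27e-07) and -0.71 in white (SE 0.075, limma adjusted p = 1.19e-07). It was higher in brown than in white by 1.12 under Fgf8b (limma adjusted p = 7.66e-10) and 1.07 under control (limma adjusted p = 1.97e-09). Cdh5, the endothelial junction protein VE-cadherin, rose. It was 0.847, 0.733, 0.842 and 0.956 RPKM in brown Fgf8b libraries, against 0.822, 0.429, 0.551 and 0.484 RPKM in brown control libraries, ranges that overlap. In white Fgf8b libraries it was 1.71, 2.16, 2.16 and 1.66 RPKM, against 1.11, 1.24, 1 and 1.15 RPKM in white control libraries, with no overlap. The rise was 0.66 in white (SE 0.15, limma adjusted p = 0.000597) and 0.43 in brown (SE 0.15, limma adjusted p = 0.0134), where it was lost without brown control 11 (0.34, limma adjusted p = 0.0514). Unlike Eng, Cdh5 was lower in brown, by -0.99 under Fgf8b (limma adjusted p = 1.51e-05) and -0.76 under control (limma adjusted p = 0.00043). Emcn, the sialomucin endomucin of capillaries and veins, fell in both depots on few reads (log2 -1.07 in brown and -1.35 in white). Brown Fgf8b libraries held 1 to 4 reads of it, against 7 to 10 in brown control libraries. White Fgf8b libraries held 0 to 1, against 3 to 7 in white control libraries. Emcn passed the filter only with the controls counted, so these falls are descriptions. Pecam1 did not pass the test for Fgf8b. Its summed value was higher in brown than in white under Fgf8b (log2 1.11) and under control (log2 1.62). These are descriptions, since Pecam1 passed the filter through brown libraries alone. Brown libraries held 5 to 10 reads of it with Fgf8b and 6 to 10 under control. White libraries held 0 to 3 reads with Fgf8b and 0 to 2 under control.

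Schwann cell and glial genes fell into 2 patterns: S100b and Ngfr were at several RPKM in the controls of both depots and fell with Fgf8b, while Sox10 and Erbb3 were higher in brown than in white libraries under both treatments. The summed level of the 5 genes was 3.11 to 4.49 RPKM in brown Fgf8b, 13.6 to 16.1 RPKM in brown control, 1.56 to 2.21 RPKM in white Fgf8b and 9.58 to 11.1 RPKM in white control libraries. Of the 4 tested, 0 rose and 4 fell with Fgf8b in brown, where 34.7% of all tested genes fell. In white 0 rose and 2 fell, where 29.5% of all tested genes fell. The median log2 changes of the 4 were -1.14 in brown and -0.88 in white. Gfap, the filament protein of astrocytes and non-myelinating Schwann cells, was at or below 0.115 RPKM in every library.

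Ngfr, the neurotrophin receptor p75, which neural crest cells and some mesenchymal progenitors carry, was 1.03, 1.21, 1.25 and 0.999 RPKM in brown Fgf8b libraries, against 4.12, 4.83, 4.95 and 4.26 RPKM in brown control libraries. White Fgf8b libraries had 0.0673, 0.2, 0.0874 and 0.109 RPKM, against 4.63, 4.24, 4.67 and 4.81 RPKM in white control libraries. The controls of the depots overlapped (log2 -0.02, limma adjusted p = 0.934), and the Fgf8b libraries were below them in both depots. The mean fell 4.05-fold in brown (log2 -1.81, SE 0.12, limma adjusted p = 1.43e-10) and 39.6-fold in white (log2 -3.74, SE 0.12, limma adjusted p = 3.55e-15). The falls differed by 1.93 (SE 0.17, limma adjusted p = 1.21e-07), the largest difference of responses among the 21 tested markers. S100b, a calcium-binding protein of Schwann cells and other glia that fat cells also make, was 0.752, 1.40, 1.61 and 1.39 RPKM in brown Fgf8b libraries, against 7.19, 8.96, 7.55 and 9.90 RPKM in brown control libraries. Its level was 1.97, 1.86, 1.38 and 1.45 RPKM in white Fgf8b libraries, against 5.62, 5.17, 6.30 and 5.65 RPKM in white control libraries. S100b fell, with a log2 change of -2.59 in brown (SE 0.17, limma adjusted p = 8.68e-11) and -1.69 in white (SE 0.17, limma adjusted p = 5.17e-08). Here the brown fall was the larger, by -0.90 (SE 0.24, limma adjusted p = 0.00662). Among controls it was higher in brown (log2 0.54, limma adjusted p = 0.0186), a call lost without brown control 15 (0.46, limma adjusted p = 0.0538) or white control 3 (0.50, limma adjusted p = 0.0523).

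Sox10, the transcription factor of neural crest and Schwann cells, was 0.944, 0.881, 1.11 and 0.778 RPKM in brown Fgf8b and 1.53, 1.05, 1.27 and 1.08 RPKM in brown control libraries. In white Fgf8b libraries it was 0, 0.0193, 0.0183 and 0.0228 RPKM, against 0.0471, 0.0186, 0.0199 and 0.0203 RPKM in white control libraries. Brown libraries held 31 to 57 reads of it and white libraries 0 to 2. Brown was higher by 2.58 under Fgf8b (SE 0.14) and 2.86 under control (SE 0.14). Sox10 passed the filter through brown libraries alone, so these depot differences are descriptions. The brown groups overlapped, and the fall with Fgf8b in brown (log2 -0.35, limma adjusted p = 0.0337) was lost without any 1 of brown Fgf8b 10, 12 or 16 or brown control 9 or 13 (limma adjusted p = 0.055 to 0.159, with the setting of a lower pseudocount included). Erbb3, the neuregulin receptor of Schwann cells, was 0.342 to 0.508 RPKM in brown Fgf8b, 0.583 to 0.775 RPKM in brown control, 0.0462 to 0.128 RPKM in white Fgf8b and 0.0503 to 0.143 RPKM in white control libraries. It was higher in brown by 0.99 under Fgf8b and 1.42 under control, again as descriptions, since it too passed through brown libraries alone. Erbb3 fell with Fgf8b in brown (log2 -0.47, limma adjusted p = 0.00573). Of the 7 further Schwann and glial genes tested, 4 were higher and 3 lower in brown under Fgf8b, and 3 were higher and 3 lower in brown under control. Among those lower under control were Egr2, a transcription factor of myelination (log2 -0.97, limma adjusted p = 7.84e-11), and Cnp, a myelin enzyme (log2 -0.13, limma adjusted p = 0.0153). Foxd3 and Cdh19, from the same list, were picked out after their values were seen, because they were higher in brown, and so support nothing. Foxd3, a neural crest transcription factor, was 0.143 to 0.318 RPKM in brown Fgf8b and 0.315 to 0.675 RPKM in brown control libraries, was listed at 0 in the 4 white Fgf8b libraries and was at most 0.0465 RPKM in white control libraries. Foxd3 was not tested. Cdh19, a cadherin of Schwann cell precursors, was 0.225 to 0.404 RPKM in brown Fgf8b, 0.489 to 0.637 RPKM in brown control, at most 0.0203 RPKM in white Fgf8b and at most 0.0497 RPKM in white control libraries.

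**Figure D3:**
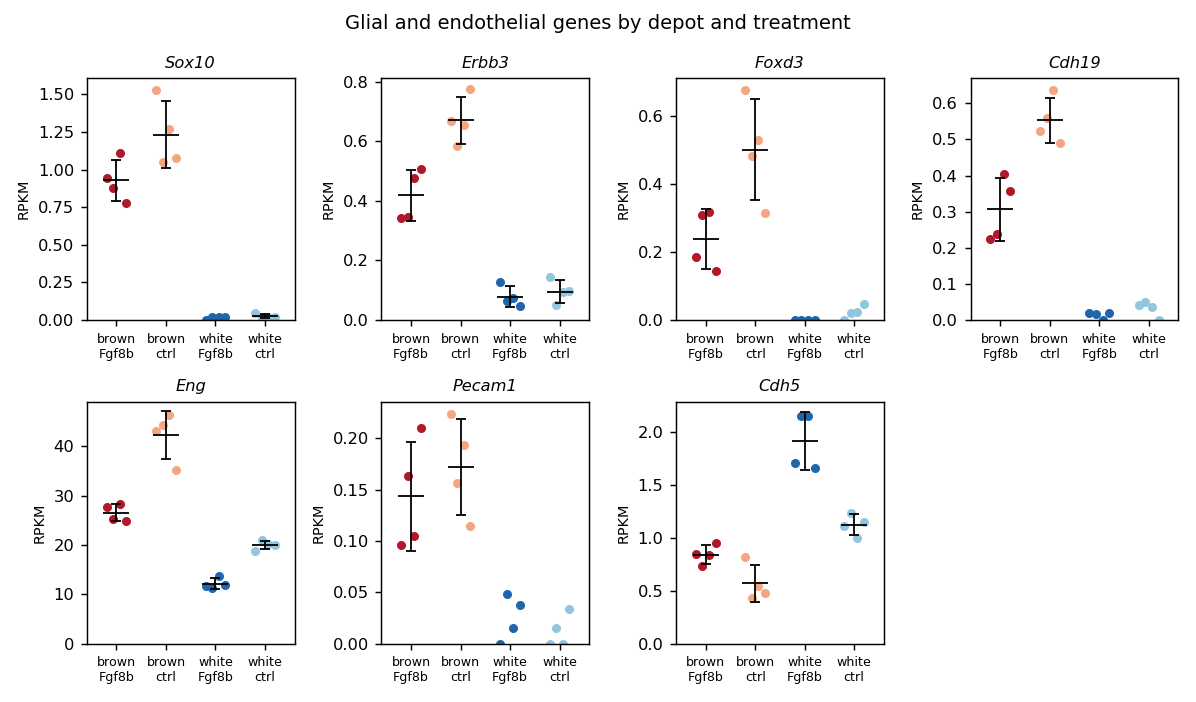
RPKM of the representative transcript in each library for 2 further glial genes and 5 of the markers, by group, with the mean and SD (n = 4) as a horizontal line and bars, drawn only where no library of the group is listed at 0. Sox10, Erbb3, Foxd3 and Cdh19 are at or below 0.143 RPKM in the 8 white libraries, Eng and Pecam1 are higher in brown, and Cdh5 is higher in white.

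Skeletal muscle genes were at or near 0 in both depots. Pax7, the transcription factor of muscle satellite cells, had 1 read in the 16 libraries, Myf5, a myogenic factor also active in precursors of brown fat, had 2, Myog, the factor of muscle differentiation, had 1 and Myod1, the factor of muscle commitment, had 0. For Myod1 a count of 0 in 16 libraries allows up to 0.00604 RPKM, counting error only. The summed level of the 4 genes was 0 to 0.0160 RPKM in brown Fgf8b, 0 to 0.0492 RPKM in brown control, 0 in white Fgf8b and 0 to 0.0307 RPKM in white control libraries. None passed the filter for testing.

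Mesothelial genes were low in the controls, and 1 of them, Bnc1, rose from near 0 with Fgf8b in both depots. The summed level of the 4 genes was 3.62 to 4.53 RPKM in brown Fgf8b, 0.0951 to 0.232 RPKM in brown control, 6.42 to 7.69 RPKM in white Fgf8b and 0.12 to 0.191 RPKM in white control libraries. Of the 2 tested, 2 were called higher in brown, Msln among them, and 1 in white. Msln, the surface protein mesothelin, was 0.266, 0.251, 0.421 and 0.290 RPKM in brown Fgf8b libraries, against 0.0344, 0.0299, 0.0593 and 0.0294 RPKM in brown control libraries. White Fgf8b libraries had 0.0814, 0.0248, 0.141 and 0.0878 RPKM, against 0.0302, 0.0239, 0.0255 and 0.0783 RPKM in white control libraries. Msln stayed below 0.5 RPKM in every library. Its log2 difference was 1.21 in brown (SE 0.18), on 8 to 13 reads per Fgf8b library against 1 to 2 per control library, and 0.27 in white (SE 0.18). Since the filter fixed the direction in brown, these are descriptions and no test of Msln is drawn on. Upk3b, a uroplakin of mesothelium, had 0 to 1 reads per brown Fgf8b, 1 to 4 per brown control, 0 per white Fgf8b and 1 to 3 per white control library. Wt1, a transcription factor of mesothelium and kidney, had 10 reads in the 16 libraries.

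Bnc1, the zinc-finger protein basonuclin 1 of keratinocytes, germ cells and mesothelium, was 3.39, 3.37, 4.11 and 3.31 RPKM in brown Fgf8b libraries, against 0.0312, 0.0136, 0 and 0.0401 RPKM in brown control libraries. White Fgf8b libraries had 6.34, 7.27, 7.53 and 7.21 RPKM, against 0.0274, 0.0434, 0.0694 and 0.0118 RPKM in white control libraries. Control libraries held 0 to 3 reads of Bnc1 in brown and 1 to 6 in white, so the controls were close to 0 while all 8 Fgf8b libraries were above 3 RPKM. The rise was 4.27 in brown (SE 0.12) and 5.07 in white (SE 0.12), on a scale that understates the change of genes this low in the controls. Bnc1 passed the filter through Fgf8b libraries alone, so these rises are descriptions and no test of them is drawn on. Under Fgf8b the mean in brown was 0.501 times that in white (log2 -0.96, SE 0.12, limma adjusted p = 3.36e-06). The difference of the rises (-0.79, SE 0.17, limma adjusted p = 0.00159) rested on the pseudocount: with 0.1 in place of 0.5 it was -0.46 (limma adjusted p = 0.325). Upk3b and Wt1 were too low to be tested. Of 8 further mesothelial genes, 4 had a representative transcript listed at 0 in every library and 2 reached 0.5 RPKM in any group. Among the latter was Cldn15, at 2.02 to 4.20 RPKM over the 16 libraries. Of the 8 genes, 4 were tested on the sum of their entries. None of these 4 was called higher with Fgf8b, and 1 was lower in each depot, a different gene each time: Lrrn4 in brown (log2 -0.27, limma adjusted p = 0.00776), whose representative transcript is among those at 0, and Cldn15 in white (log2 -0.30, limma adjusted p = 0.00642). Lrrn4 was named after its values were seen.

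Epithelial genes were led by Krt19. This keratin of simple epithelia and ducts was 11.4, 14.6, 11.4 and 12.9 RPKM in brown Fgf8b libraries, against 14.4, 14, 14 and 12.4 RPKM in brown control libraries. Its level was 11.9, 10.6, 8.78 and 9.63 RPKM in white Fgf8b libraries, against 13.6, 12.8, 12.5 and 14.1 RPKM in white control libraries. Krt19 fell in white (log2 -0.38, SE 0.076, limma adjusted p = 0.000211), and under Fgf8b it was higher in brown than in white (log2 0.31, limma adjusted p = 0.00214). It was not called with Fgf8b in brown (log2 -0.13, SE 0.076, limma adjusted p = 0.122), where it became a call without brown Fgf8b 12 (-0.21, limma adjusted p = 0.016) or with upper-quartile factors (-0.22, limma adjusted p = 0.0125). Apart from Krt18, the other genes of the list were near 0: Krt8, the partner keratin of simple epithelia, was at most 0.110 RPKM, Cdh1, the epithelial junction protein E-cadherin, at most 0.155 RPKM, and Epcam, an epithelial adhesion molecule, at most 0.212 RPKM in any library. The summed level of the 5 genes, most of it from Krt19, was 11.9 to 15.2 RPKM in brown Fgf8b, 12.6 to 14.6 RPKM in brown control, 10.1 to 13.3 RPKM in white Fgf8b and 12.7 to 14.3 RPKM in white control libraries.

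Of the 3 epithelial genes tested, 2 rose and 0 fell with Fgf8b in brown and 2 rose and 1 fell in white. Krt18, the keratin that forms filaments with Krt8, was 0.446, 0.427, 0.440 and 0.486 RPKM in brown Fgf8b libraries and was listed at 0 in the 4 brown control libraries. White Fgf8b libraries had 1.15, 1.01, 1.06 and 1.11 RPKM, against 0.0457, 0.144, 0.0385 and 0 RPKM in white control libraries. Krt18 rose by 1.49 in brown (SE 0.15) and 2.14 in white (SE 0.15). Because Krt18 passed the filter through Fgf8b libraries alone, these rises are descriptions. They rest on 9 to 10 reads per brown Fgf8b library against 0 per brown control library. In white there were 25 to 30 reads per Fgf8b library against 0 to 4 per control library. Against a floor of 3 reads over the 4 brown controls, the mean in brown Fgf8b libraries was at least 12.9-fold higher, counting error only. Under Fgf8b it was lower in brown than in white (log2 -0.93, limma adjusted p = 3.89e-05). The difference of the rises (-0.65, SE 0.21, limma adjusted p = 0.0219) was lost with a pseudocount of 0.1 (-0.24, limma adjusted p = 0.74). Krt8 was not tested, with at most 4 reads in any library. Epcam rose on few reads (log2 0.56 in brown and 0.70 in white). Brown Fgf8b libraries held 2 to 7 reads of it against 1 to 2 per brown control library. White Fgf8b libraries held 6 to 7 against 2 to 4 per white control library. Epcam passed the filter mainly through Fgf8b libraries, so these rises are descriptions. Its call in brown was lost without brown Fgf8b 10 (0.41, limma adjusted p = 0.076), brown Fgf8b 16 (0.49, limma adjusted p = 0.0533) or brown control 13 (0.48, limma adjusted p = 0.0557).

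**Figure D4:**
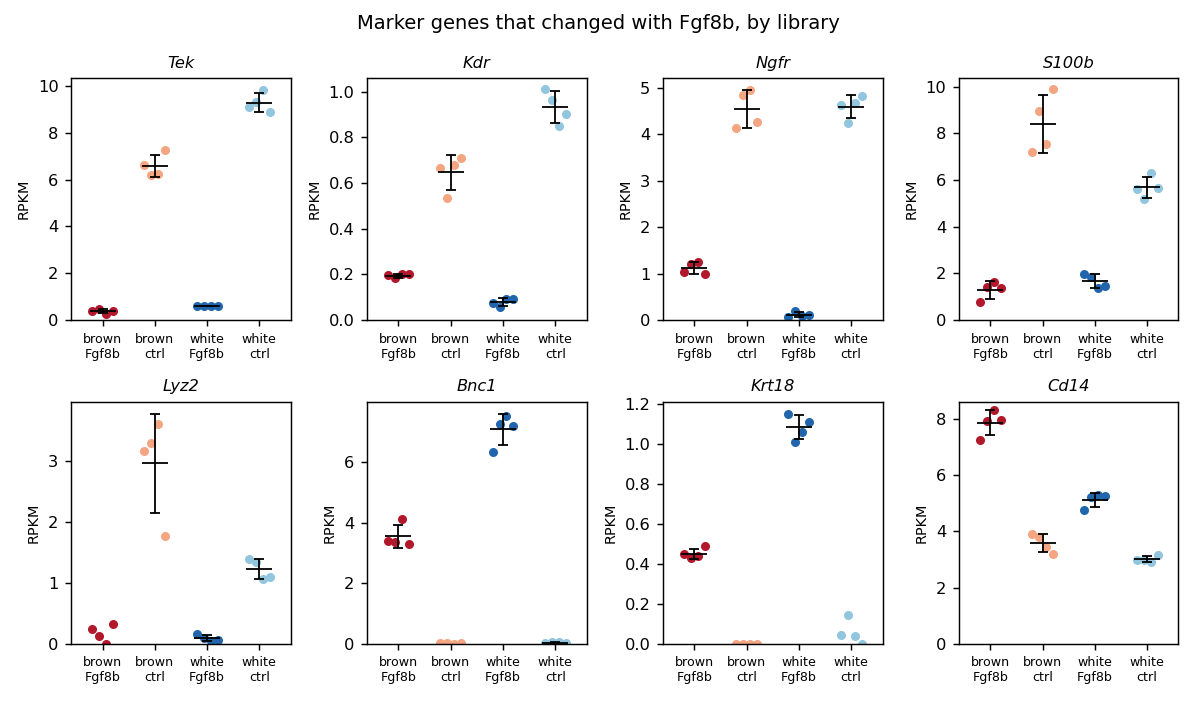
RPKM of the representative transcript in each library for 8 markers that changed with Fgf8b, by group, with the mean and SD (n = 4) as a horizontal line and bars, drawn only where no library of the group is listed at 0. Tek, Kdr, Ngfr, S100b and Lyz2 are lower in the Fgf8b libraries of both depots, and Bnc1, Krt18 and Cd14 are higher.

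The start regions of Bnc1 and Krt18, which rose from near 0, and of Tek and Ngfr, which had the largest falls in white, are given, since these 4 moved in the same direction in both depots. They are RefSeq sequences of GRCm38.p6, 300 bases each, from 250 bases before to 50 after the gene's start, on the gene's strand. Bnc1 lies at chr7:81992250-81992549 on the minus strand, Krt18 at chr15:102027966-102028265 on the plus strand, Tek at chr4:94739039-94739338 on the plus strand and Ngfr at chr11:95587649-95587948 on the minus strand. Capitals mark the GC box, GGGCGG or its reverse complement CCGCCC.
Bnc1: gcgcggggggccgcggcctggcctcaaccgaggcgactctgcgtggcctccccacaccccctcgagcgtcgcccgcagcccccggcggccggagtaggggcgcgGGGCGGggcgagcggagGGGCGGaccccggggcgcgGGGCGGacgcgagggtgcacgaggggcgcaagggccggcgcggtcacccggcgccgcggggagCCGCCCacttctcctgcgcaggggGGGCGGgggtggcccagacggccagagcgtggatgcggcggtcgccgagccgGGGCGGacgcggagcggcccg
Krt18: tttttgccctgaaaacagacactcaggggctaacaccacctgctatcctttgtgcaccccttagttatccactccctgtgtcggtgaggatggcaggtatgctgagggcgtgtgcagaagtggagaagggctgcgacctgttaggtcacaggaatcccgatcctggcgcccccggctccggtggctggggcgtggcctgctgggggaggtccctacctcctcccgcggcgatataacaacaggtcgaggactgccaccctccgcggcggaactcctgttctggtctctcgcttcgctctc
Tek: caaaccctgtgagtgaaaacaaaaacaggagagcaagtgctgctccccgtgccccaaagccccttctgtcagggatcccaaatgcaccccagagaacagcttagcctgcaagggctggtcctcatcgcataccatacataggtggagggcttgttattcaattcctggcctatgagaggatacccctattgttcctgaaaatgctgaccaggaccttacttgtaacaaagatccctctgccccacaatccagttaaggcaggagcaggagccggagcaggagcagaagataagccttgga
Ngfr: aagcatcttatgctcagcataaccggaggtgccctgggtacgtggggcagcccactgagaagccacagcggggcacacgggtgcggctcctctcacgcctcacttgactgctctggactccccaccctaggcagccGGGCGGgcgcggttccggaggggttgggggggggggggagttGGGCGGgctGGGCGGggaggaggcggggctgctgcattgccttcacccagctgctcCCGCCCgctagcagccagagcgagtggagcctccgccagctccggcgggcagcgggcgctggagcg
The GC box occurred 6 times in the Bnc1 window and 4 times in the Ngfr window and was not found in those of Krt18 and Tek, so a gene that rose and a gene that fell held it alike. Of all 32851 such windows 35.7% held it, as did 10 of the 24 windows that matched 22 of the markers. The AP-1 letters TGANTCA were in none of these 4 windows, in 1 of 24 marker windows (Cd68) and in 7.81% of all windows. The ETS letters CGGAAG were in none of the 4, in 2 of 24 marker windows (Coro1a and Laptm5) and in 16.9% of all windows. Both strands were searched, and no match says only that these letters are not in this window.

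The size of the Fgf8b response differed between depots for 7 of the 21 tested markers, 4 with a positive and 3 with a negative difference, where 34.9% of all tested genes were called (17.1% positive and 17.8% negative). Cd14 rose more in brown. Msln is among the 7, but it passed the filter through brown Fgf8b libraries alone. Kdr and Ngfr fell less in brown, S100b fell more in brown, and Bnc1 and Krt18 rose less in brown at a pseudocount of 0.5. For Tek the responses were -3.72 in brown and -3.76 in white, a difference of 0.04 with an SE of 0.27 (limma adjusted p = 0.93), and for Eng a difference of 0.04 with an SE of 0.11 (limma adjusted p = 0.79).

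Further genes of the same cell types, listed beside the members, gave the following. Of 12 macrophage and monocyte genes 3 were listed at 0 in all libraries and 0 reached 0.5 RPKM in any group. Their summed level was 0.272 to 0.341 RPKM in brown Fgf8b, 0.195 to 0.548 RPKM in brown control, 0.116 to 0.244 RPKM in white Fgf8b and 0.188 to 0.519 RPKM in white control libraries. Of 15 lymphocyte, mast cell and granulocyte genes 8 were listed at 0 throughout and 0 reached 0.5 RPKM. The highest gene of that list was Kit, the stem cell factor receptor, which fell in white (log2 -2.40, limma adjusted p = 1.58e-10), with 0 to 0.0304 RPKM in white Fgf8b and 0.347 to 0.538 RPKM in white control libraries. Of 6 erythroid genes 4 were listed at 0 throughout, the globin genes Hba-a1, Hba-a2, Hbb-bs and Hbb-bt. These share 71.4%, 91%, 66.9% and 59.4% of their words with other genes, more than Ppia, so their level cannot be read from these zeros. Of 10 further epithelial genes 0 reached 0.5 RPKM in any group.

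Of 14 further endothelial and lymphatic genes 6 reached 0.5 RPKM in any group and 7 were tested, with 3 higher and 2 lower with Fgf8b in brown and 3 higher and 3 lower in white. Pdpn, podoplanin, a marker of lymphatic endothelium that fibroblasts also express, was 399 ± 5.47 RPKM in brown Fgf8b, 91.1 ± 2.80 RPKM in brown control, 309 ± 13.3 RPKM in white Fgf8b and 90.9 ± 5.60 RPKM in white control libraries (SD, n = 4). It rose in both depots (log2 2.13 and 1.76, limma adjusted p = 3.03e-18 and 6.32e-17). Ptprb, the endothelial phosphatase that acts on Tek, fell in both (log2 -0.61 in brown and -1.33 in white, limma adjusted p = 1.51e-05 and 5.56e-10), as Tek did. Egfl7, a secreted endothelial protein, rose (log2 0.36 and 0.58, limma adjusted p = 0.000492 and 3.63e-06). Of 9 further Schwann and glial genes 7 reached 0.5 RPKM in any group. In this list 7 were tested, with 2 higher and 5 lower in brown and 2 higher and 3 lower in white. Pmp22, a myelin protein that fibroblasts also express, led with 63.2 ± 1.35 RPKM in brown Fgf8b, 157 ± 4.71 RPKM in brown control, 76.5 ± 1.26 RPKM in white Fgf8b and 151 ± 2.03 RPKM in white control libraries (SD, n = 4).

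Of 6 neuron genes 2 reached 0.5 RPKM in any group, 3 were tested and 2 rose in each depot. Nefl, the light neurofilament protein, averaged 9.33 ± 0.555 RPKM in brown Fgf8b, 0.151 ± 0.0832 RPKM in brown control, 13.1 ± 1.06 RPKM in white Fgf8b and 1.15 ± 0.163 RPKM in white control libraries (SD, n = 4). Its rise was 4.74 in brown and 3.36 in white (log2, limma adjusted p = 1.48e-17 and 3.03e-15). It shares 32.2% of its words with Nefm. Of 13 further skeletal muscle genes 5 reached 0.5 RPKM in any group. In this list 6 were tested, with 1 higher and 4 lower in brown and 1 higher and 2 lower in white. The gene that rose was Chrna1, the muscle acetylcholine receptor subunit. It averaged 3.46 ± 0.501 RPKM in brown Fgf8b and 0.0409 ± 0.0297 RPKM in brown control libraries (SD, n = 4). In white it averaged 2.67 ± 0.329 RPKM with Fgf8b and 0.0274 ± 0.0224 RPKM under control (SD, n = 4). Its log2 change was 4.71 in brown and 4.56 in white. Since its representative transcript was below 0.5 RPKM in every control library, these changes are descriptions. Acta1 and Actc1, the actins of skeletal and cardiac muscle, fell in both depots. Acta1 was 2.06 to 2.59 RPKM in brown Fgf8b and 7.82 to 10.1 RPKM in brown control libraries. White libraries had 1.64 to 2.42 RPKM of it with Fgf8b and 4.73 to 6.93 RPKM under control. Actc1 was 0.833 to 1.62 RPKM in brown Fgf8b and 2.55 to 6.72 RPKM in brown control libraries. For white these were 0.445 to 0.991 RPKM and 2.39 to 3.38 RPKM. In the mesothelial list Upk1b, a uroplakin, differed between depots. It was 1.48 to 2.12 RPKM in brown Fgf8b and 1.17 to 1.55 RPKM in brown control libraries. White Fgf8b libraries had 0 to 0.112 RPKM and white control libraries 0.0572 to 0.156 RPKM. Brown against white was log2 3.35 under Fgf8b and 2.64 under control. Since its representative transcript was below 0.5 RPKM in every white library, these differences are descriptions. Of 10 pericyte and smooth muscle genes 8 reached 0.5 RPKM in any group. In this list 9 were tested, with 1 higher and 7 lower in brown and 2 higher and 5 lower in white. Their summed level, led by Acta2, was 470 to 562 RPKM in brown Fgf8b, 1410 to 1680 RPKM in brown control, 357 to 389 RPKM in white Fgf8b and 976 to 1110 RPKM in white control libraries.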

How the data were processed

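Per the labels' protocols, extraction was by TRIsure and columns, followed by TruSeq RNA v2 library preparation. CASAVA and bcl2fastq stand in the submitters' processing notes with no version given. The authors deposited 1 table of RPKM per transcript for 168326 entries and 16 libraries, written with decimal commas; the sources used here do not give its build, aligner or strand setting, so reads of antisense partners may be mixed. Entries without a symbol (13.8%) and the 808 entries on 299 repeated accessions were left out. Of these accessions 145 had unequal values in white and 0 in brown libraries, a limit on levels set across the depots.

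Levels are those of 1 representative transcript per gene, the RefSeq entry with the highest mean. Tests used the sum over a gene's entries as log2(RPKM + 0.5), for the 15222 genes that reached 0.5 RPKM in 4 or more libraries, in limma 3.58.1 (R 4.3.3) with trend and robust moderation over all 16 libraries. Called means a Benjamini-Hochberg adjusted p under 0.05 over all tested genes; fold changes on this scale understate low genes, and SE is the standard error. Folds of means are of representative transcripts. The RPKM values deposited by the authors step in whole reads: for values up to 50 reads, 95.6 to 96% were less than 0.1 from a whole number. Reads quoted are recovered from these steps; limits from 3 reads cover counting error only. Shared words are 31-base words of GENCODE M21 transcripts. The test was tested on simulated data. Python 3.11.15 with pandas 2.3.3, numpy 2.4.6 and matplotlib 3.10.9 did the rest.

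The markers and lists were chosen with earlier results of these data known. Full values were given for markers with a group mean of at least 1 RPKM, and of further lists the 3 highest genes could be named. Alternatives were other pseudocounts, filters, scalings and moderation, the representative transcript and each library left out.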

Additional observations from a re-analysis of the deposited data

Results flagged for a closer look

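Among the 12 markers with a group mean of at least 1 RPKM, 48 groups of 4 libraries were examined for a library far from the other 3, and 4 were found; chance gives about 1 in 20 groups. Cd68 was 0.505 RPKM in brown control 9, against 0.618 to 0.628 RPKM in the other brown controls. Cd14 was 4.75 RPKM in white Fgf8b 2, against 5.22 to 5.28 RPKM. Sox10 was 0.0471 RPKM in white control 1, against 0.0186 to 0.0203 RPKM, a step of 1 read to 2. Bnc1 was 4.11 RPKM in brown Fgf8b 14, against 3.31 to 3.39 RPKM.

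The Fgf8b response differed between depots, brown minus white on the log2 scale and by limma's test of the difference, for 7 markers. That is 7 of the 21 tested, where 34.9% of all tested genes were called. The difference was 1.93 for Ngfr (adjusted p = 1.21e-07), 1.20 for Kdr (adjusted p = 3.35e-05), 0.94 for Msln, which passed the filter through brown Fgf8b libraries alone and so had to differ, and 0.39 for Cd14 (adjusted p = 0.00179). It was -0.90 for S100b (adjusted p = 0.00662), -0.79 for Bnc1 (adjusted p = 0.00159) and -0.65 for Krt18 (adjusted p = 0.0219).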

How the results depend on the processing

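No paired analysis was possible because the groups share no replicate number. Leaving out each library in turn, called markers numbered 14 to 17 for Fgf8b in brown, 15 in every case for Fgf8b in white, 14 to 17 between depots under Fgf8b, 11 to 14 under control and 6 to 8 for the difference of responses; the other settings gave 14 to 18, 13 to 17, 13 to 16, 11 to 14 and 5 to 8. Summed over all entries, which counts reads several times, 14 markers were below 0.5 RPKM in brown Fgf8b, and list sums rose, in brown Fgf8b, brown control, white Fgf8b and white control, to 57.8, 53.0, 39.1 and 37.3 RPKM (leukocyte), 230, 390, 110 and 214 (endothelial), 10.2, 41.7, 6.01 and 27.9 (Schwann and glial), 11, 0.728, 20.2 and 0.640 (mesothelial) and 44.7, 47.7, 37.8 and 45.9 (epithelial), and for skeletal muscle to 0.0141 in brown Fgf8b. Of 2345 recomputed values of single markers 2269 kept direction and side of the threshold, 41 lost a call, 18 gained one and 17 turned sign; the cause was not tested. Each that turned was not called before or after: Laptm5 with Fgf8b in white (-0.21 to 0.27 over libraries left out; -0.21 without white Fgf8b 2, -0.01 without white control 1, 3 or 5), Erbb3 with Fgf8b in white (-0.09 to 0.01; 0.01 without white Fgf8b 8, 0.00 without white control 1), Ngfr between control depots (-0.06 to 0.03; 0.03 without brown control 9, 0.01 without brown control 15, 0.00 without white control 7), Msln between control depots (-0.08 to 0.06; 0.01 without brown control 9, 0.06 without white control 7), and the differences of responses of Tek (-0.24 to 0.19; -0.07 with a pseudocount of 0.1, -0.24 without brown Fgf8b 12, -0.01 without brown control 11, -0.03 without white Fgf8b 8), Eng (-0.04 to 0.10; -0.04 without brown control 15) and Epcam (-0.28 to 0.02; 0.02 without brown Fgf8b 14). Between control depots, the Emcn call (log2 0.62, limma adjusted p = 0.0306) was lost in 4 settings, without brown control 9 or 13 or white control 7 or with a pseudocount of 0.1 (limma adjusted p = 0.0757 to 0.117). The difference of responses of Lyz2, not called (-0.79, limma adjusted p = 0.128), was called in 4 settings: with a pseudocount of 1 (-0.81), on the representative transcript (-0.81), without brown Fgf8b 16 (-1.03) and without brown control 15 (-0.98). At this depth 1 read is the step between neighbouring values of the lowest markers.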
